A study of Drosophila melanogaster with 30 samples.

Results

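The onset of the long night sleep of the fly was examined as a pairwise difference between brains of flies that had slept undisturbed to ZT16 and brains taken at ZT14, where consolidated sleep starts. ZT counts hours from lights-on. The comparison was chosen by sample titles alone and uses 6 of the 30 arrays in the series, 3 at ZT16 and 3 at ZT14. In both groups the flies were virgin Canton-S females, a wild-type strain, aged 5 days, kept at 50 flies per population with 12 h of light at 25 °C and killed in hot water. Each array holds RNA from a pool of 139 to 193 whole brains, hybridised to an Affymetrix Drosophila Genome 1.0 array, and the submitters describe 3 biological replications per group.

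The series holds further groups of the same strain, sex and age. Deprived flies were kept awake by hand for 2, 4 or 6 h from ZT14, and undisturbed sleepers were taken at the same hours. Separate flies were taken at ZT10 and, undisturbed and awake, at ZT14. Flies stimulated by hand during their active period were not used here. The submitters describe the ZT14 group as the means of telling the direction in which sleeping and deprived brains diverged, so its distance from the sleeping ZT16 brains is the starting side of that reading.

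Fly sleep is a reversible quiet state with a raised arousal threshold and a homeostatic rebound after loss. Its timing is set by a clock in which the CLK and CYC proteins drive per, tim, vri and Pdp1, and the products of per and tim later shut that drive off. Early night is the part of the day in which per and tim RNA is high, so 2 h at this phase include the passage of clock time as well as the onset of sleep. In this design sleep and elapsed time cannot be told apart within the pair.

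The 6 arrays were similar by whole-array correlation, while array weights fitted to them alone ranged from 0.333 to 7.18. Correlations across probe sets averaged 0.9942 between a sleeping ZT16 array and a ZT14 array, 0.9935 among the sleeping ZT16 arrays and 0.9933 among the ZT14 arrays, so arrays of different groups resembled each other as closely as arrays within a group. All 3 sleeping ZT16 arrays shared a hybridisation run with replicates 1 and 2 of ZT14, while replicate 3 of ZT14 was hybridised apart from them and scanned on another day. Both groups were split over 2 chip lots, called lots 2 and 3 here. Lot 2 held only the first sleeping ZT16 array and the second ZT14 array, so each value within lot 2 is 1 array minus 1 array. Lot 3 held the other arrays of the pair, including the third ZT14 array. Leaving out the third ZT14 array moved the difference by more than 1.5 times in 27 of 104 genes named here. Of these, 13 came nearer to 0, 12 lay farther from it and 2, tim and inaC, turned sign, and the values are given below for the genes the results turn on. In the deprived ZT16 group, replicate 2 stood apart, with correlations to its group down to 0.974. Its log2 signal at the 3' end minus the 5' end was 2.704 for the actin control, against 1.783 and 1.937 in its group. For the Gapdh control it was 2.364 against 1.863 and 1.845. Among the arrays compared, the second sleeping ZT16 array was highest in both, at 2.519 and 2.217. The part of RNA quality in the differences was not tested. With 3 arrays in each group, that number sets how precise a value can be. For this pair, p-values rest on the spread within groups, pooled over the sleeping, deprived and ZT14 groups. Several of these groups, among them ZT14 and deprived ZT16, were split over hybridisation runs. That spread can therefore hold differences between runs as well as between pools, and it includes the deprived array that stood apart.

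No transcript passed the test over the first 2 h of sleep. Differences are on the log2 scale, on which 1 unit is a doubling, and sleeping ZT16 minus ZT14 was fitted with limma over the 21 arrays of the deprivation experiment. After Benjamini-Hochberg adjustment over 13966 probe sets, 0 (0%) passed an adjusted p of 0.05, and the smallest adjusted p was 0.9998. At an unadjusted p under 0.05 there were 280 probe sets (2%), of which 132 (0.945%) were higher and 148 (1.06%) lower at sleeping ZT16. With no change at all, 5% would be expected there if the spread was estimated well. The share of 2% lies below that, and the count was 707 with the hybridisation run as a block. The share thus depends on the fit and does not by itself measure how much changed. A fit of only the 6 arrays also passed 0 probe sets and placed 234 under the unadjusted threshold. A fit of all 30 arrays passed 0 and placed 358. Without the third ZT14 array, 0 passed and 626 lay under the unadjusted threshold. A fit with array weights was the exception and passed 278 probe sets, 104 higher and 174 lower; it gave the first sleeping ZT16 array a weight of 6.80 against 0.267 to 3.96 for the other 20 arrays, and 0 passed when that array was left out.

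The median absolute difference was 0.06 log2 units and the 95th percentile was 0.18. The largest was 0.91, no probe set reached 1, and 22 exceeded 0.5, split evenly into 11 higher and 11 lower. The 95% interval lay inside plus or minus 1 for 13921 probe sets (99.7%) and inside plus or minus 0.5 for 13147 (94.1%). A change of more than 2-fold in measured signal therefore lay outside the interval of nearly every probe set taken singly. These counts include dim probe sets, whose values RMA compresses, so there the interval does not bound the change in RNA. The median half-width of the intervals, which are not adjusted for the number of probe sets, was 0.21. No difference of any size passed after adjustment in this fit. The 3 sleeping ZT16 values lay wholly above or wholly below the 3 ZT14 values for 803 probe sets (5.75%), 367 above (2.63%) and 436 below (3.12%).

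**Figure D1:**
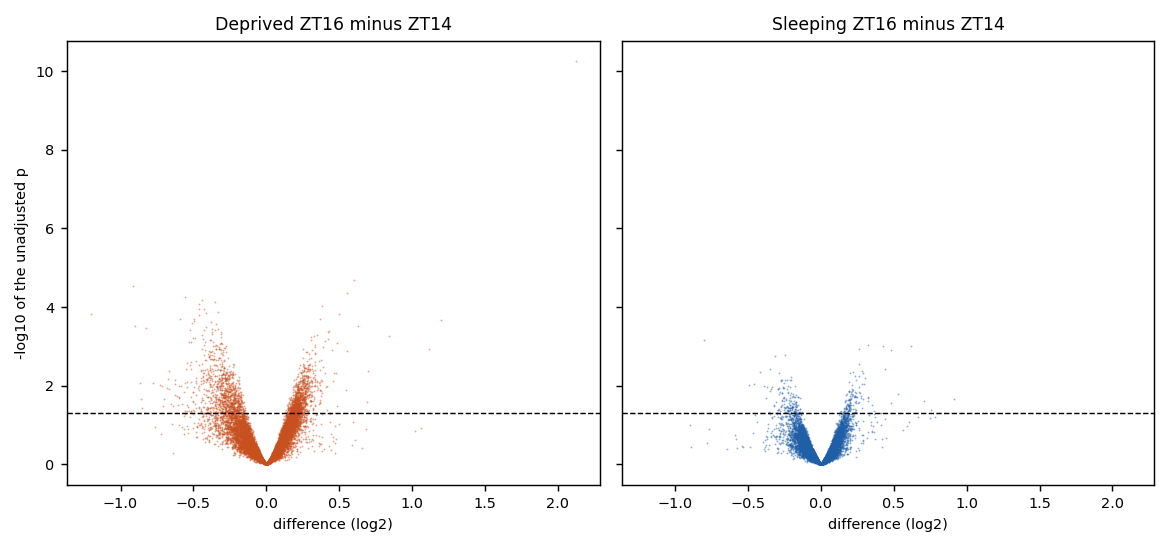
Each point is 1 of 13966 probe sets. The x axis is the log2 difference from ZT14 and the y axis is −log10 of the unadjusted limma p, with deprived ZT16 on the left, sleeping ZT16 on the right and a dashed line at 0.05. The single isolated point at 2.12 log2 units on the left is sr, and no point on the right reaches 1.

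Among named genes, each taken by its brightest probe set, the 8 smallest p-values in the higher direction belonged to CG14238, Cpr72Ec, Pdh, Cyt-c1L, CG5388, retinin, CG13965 and ouib. None passed, each with an adjusted p of 0.9998. These genes and those in the lower direction were picked by p on these same arrays. Separate groups among them follow largely from that choice and are no further support. Of all genes, 2.48% had sleeping values wholly above ZT14 values and 3.32% wholly below. Pdh encodes a dehydrogenase of the pigment cells around photoreceptors. Its log2 values were 4.66, 4.97 and 4.81 in sleeping ZT16 brains, against 4.36, 4.17 and 4.06 in ZT14 brains. The groups did not overlap, and the difference was 0.62 (95% interval 0.29 to 0.95). Retinin, a protein of the corneal lens, had 7.72, 8.26 and 8.02 in sleeping ZT16 brains and 7.66, 7.62 and 7.39 in ZT14 brains. The lowest sleeping array lay just above the highest ZT14 array, and the difference of 0.44 was 0.09 within chip lot 2 and 0.62 within lot 3. Cpr72Ec, of the cuticle protein family and reported to cycle in fly heads, had 4.60, 4.78 and 4.70 in sleeping ZT16 brains and 4.32, 4.10 and 4.38 in ZT14 brains, a difference of 0.43 with no overlap. The other 5 genes had differences between 0.22 and 0.32, and CG14238 was measured near the dim end, with a mean of 2.95 in sleeping ZT16 brains and 2.63 in ZT14 brains.

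In the lower direction the 8 smallest p-values belonged to CG9377, CG9933, speck, Sod3, Spn27A, PMP34, CG11788 and CG9890, again each with an adjusted p of 0.9998. CG9377 had the smallest p of all probe sets, 0.000694 unadjusted. Its log2 values were 7.03, 7.14 and 7.63 in sleeping ZT16 brains and 7.86, 8.11 and 8.22 in ZT14 brains. No value overlapped, and the difference of -0.80 (95% interval -1.22 to -0.39) was -1.09 within lot 2 and -0.66 within lot 3. The gene speck encodes arylalkylamine N-acetyltransferase, which acetylates dopamine, serotonin and octopamine and so inactivates them. It had 7.63, 7.64 and 7.68 in sleeping ZT16 brains and 7.94, 8.05 and 7.91 in ZT14 brains, a difference of -0.31 (95% interval -0.50 to -0.13) with tight, separate groups. Sod3, an extracellular superoxide dismutase, had 7.42, 7.38 and 7.67 in sleeping ZT16 brains and 7.84, 8.09 and 7.80 in ZT14 brains. The 3 probe sets of Sod3 did not move alike, with differences of -0.42, -0.27 and 0.05. Spn27A, a serpin that restrains melanisation, differed by -0.29, PMP34, a peroxisomal membrane carrier, by -0.21, and the remaining 3 by -0.22 to -0.25.

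**Figure D2:**
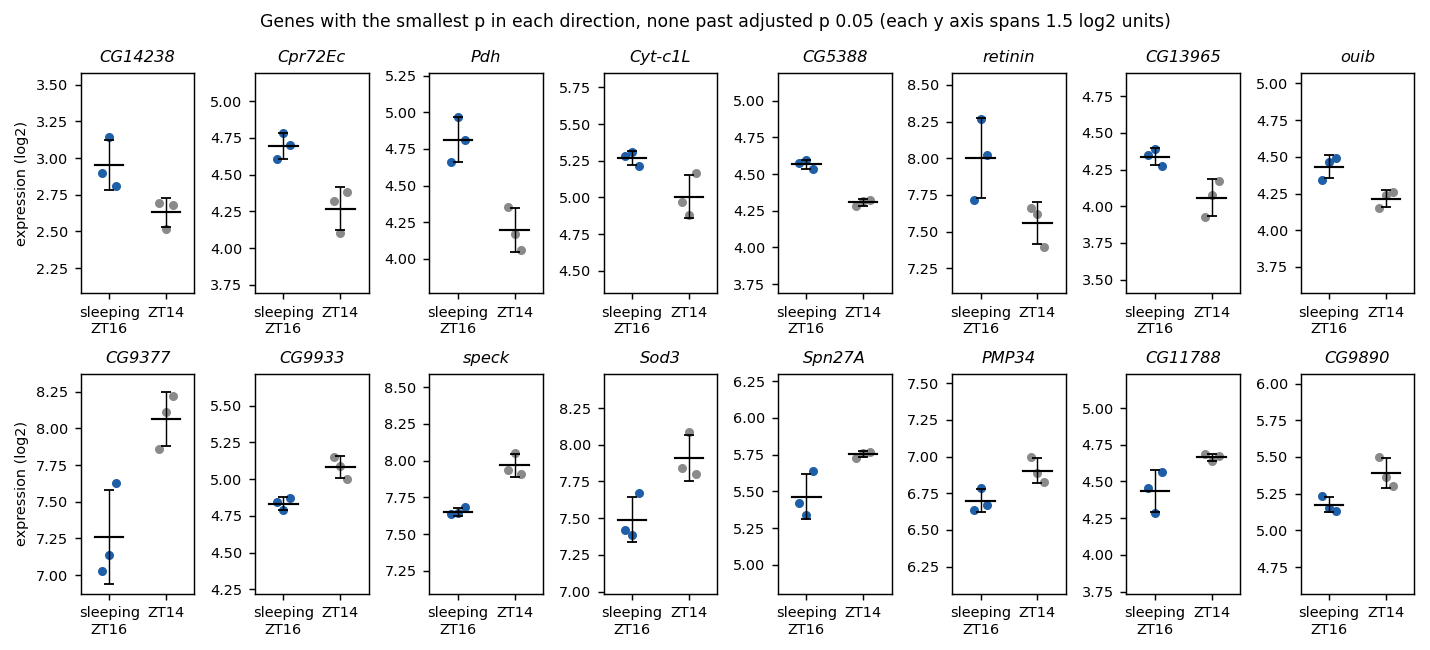
Log2 expression on each array (points) with the mean and SD (bars) in sleeping ZT16 and ZT14 brains, 3 arrays each, for the 8 genes with the smallest p in each direction. The 16 genes show separate groups, which follows largely from picking them by p on these same arrays. Groups were separate for 5.75% of all probe sets. All differences are under 1 log2 unit, and none passed an adjusted p of 0.05.

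The core clock genes were followed individually because early night is a turning phase of the cycle. Of 8 genes, 0 passed the test, 3 had positive and 5 negative differences, and their median was -0.06 against 0.00 for all 10844 genes. Over all genes, taken by their brightest probe set, 50.2% of differences were positive and 1.98% lay under an unadjusted p of 0.05. Among clock genes only Clk did so. Clk, which encodes a transcription factor that starts the loop, had 2.67, 2.57 and 2.63 in sleeping ZT16 brains and 2.70, 2.92 and 2.93 in ZT14 brains. The groups were separate but close, with a difference of -0.22 (unadjusted p = 0.0105), and the probe set reads near the dim end of the array.

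The repressor genes per and tim had overlapping values at the 2 hours. The gene per had 5.66, 5.64 and 5.88 in sleeping ZT16 brains and 5.62, 5.66 and 5.76 in ZT14 brains, a difference of 0.05 (95% interval -0.20 to 0.29). For tim the values were 7.20, 6.92 and 7.24 in sleeping ZT16 brains and 7.09, 7.20 and 6.84 in ZT14 brains, a difference of 0.08 (95% interval -0.22 to 0.37). The difference of tim was -0.03 and that of per 0.09 without the third ZT14 array. In the second loop, vri, a repressor of Clk, differed by 0.12 and Pdp1, an activator of Clk, by -0.04. The activator cyc differed by -0.11, the repressor cwo by -0.14 with 0.03 at its other probe set, and the blue-light receptor gene cry by -0.09. For these 5 genes the groups overlapped. The differences of cwo and Pdp1 were -0.25 and -0.10 without the third ZT14 array.

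The later hours were read beside this pair for the same genes. The means of vri were 6.77 ± 0.13 at ZT14, 6.89 ± 0.18 at ZT16, 6.48 ± 0.14 at ZT18 and 5.84 ± 0.13 at ZT20 in undisturbed flies (SD, n = 3 each). For vri, sleeping ZT18 minus sleeping ZT16 was -0.41 and did not pass (limma, adjusted p = 0.441). Clk had means of 2.85 at ZT14, 2.62 at ZT16, 2.71 at ZT18 and 2.95 at ZT20, so the lowest mean was at ZT16. One ZT20 array, replicate 1, carries labels that disagree on whether its flies slept, and it was grouped by its title. The ZT18 and ZT20 arrays lay in other hybridisation runs than the 6 arrays compared, so the step from ZT16 to the later hours cannot be told apart from the change of run.

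**Figure D3:**
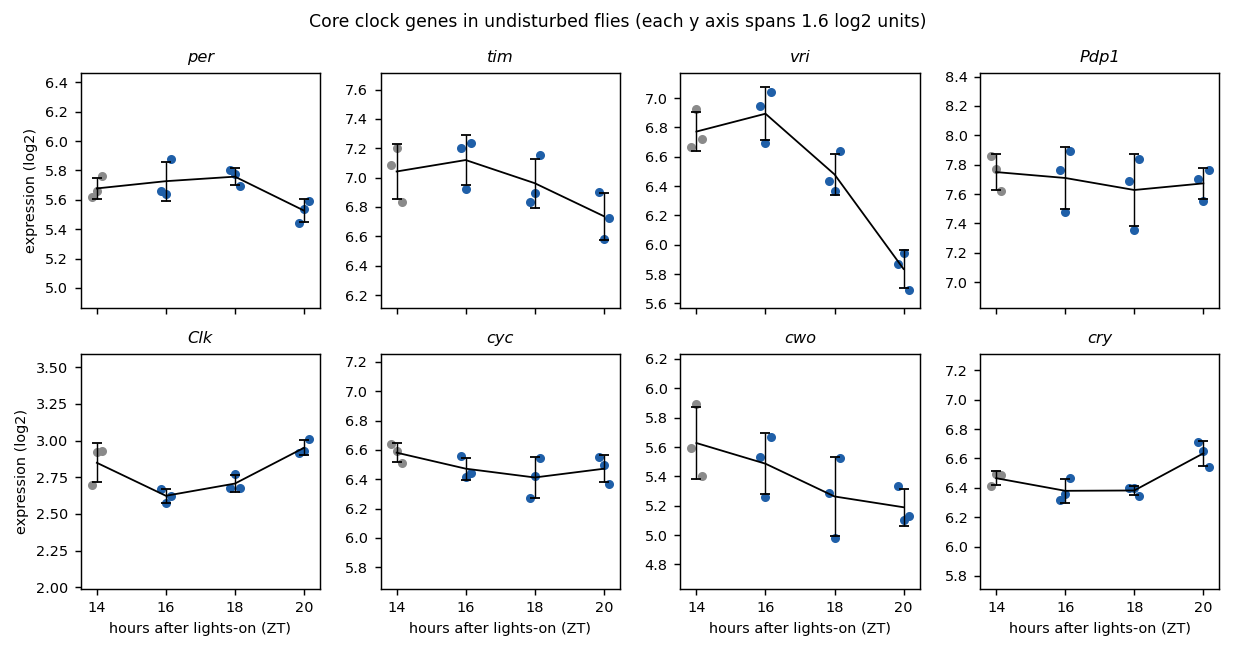
Log2 expression of 8 core clock genes on each array (points) with the mean (line) and SD (bars) at ZT14, ZT16, ZT18 and ZT20 in undisturbed flies, 3 arrays each. From ZT14 to ZT16 only Clk shows separate groups, with a difference of -0.22, while the vri mean is highest at ZT16 and lowest at ZT20.

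Of clock kinases, phosphatases and turnover factors, 0 of 8 passed and the median was -0.06. The smallest p-values belonged to jet (-0.08), which promotes TIM breakdown in light, and tyf (-0.07), an activator of PER translation. Of genes reported to cycle in fly heads, 0 of 23 passed, 11 were positive and 12 negative, and the median was -0.01. In that list 3 genes lay under an unadjusted p of 0.05, all higher at sleeping ZT16, where 0.839% of all genes did so; Cpr72Ec and Pdh were 2 of them.

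Genes of neuronal activity and signalling gave no call. Of 15 activity-regulated genes, 0 passed, 13 were negative and 2 positive, with a median of -0.08, where 49.8% of all genes were negative. The stripe gene sr, an Egr-family transcription factor induced by neuronal activity, had 6.20, 5.93 and 6.20 in sleeping ZT16 brains and 6.14, 6.27 and 5.98 in ZT14 brains. These values interleave, and the difference was -0.02 (95% interval -0.36 to 0.32). The difference of sr was -0.09 without the third ZT14 array. CG17778 differed by -0.28 and Jra, the fly Jun, by -0.16. The values of Jra were separate between groups, at 5.83, 5.99 and 6.07 in sleeping ZT16 brains and 6.11, 6.17 and 6.08 in ZT14 brains.

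Of 30 neurotransmitter receptors, 0 passed and the median was -0.004. The acetylcholine receptor subunit nAChRbeta1 had 6.82, 6.21 and 6.14 in sleeping ZT16 brains and 5.81, 6.34 and 5.78 in ZT14 brains, a difference of 0.42 with overlap. The serotonin receptor 5-HT1B differed by 0.17, and its groups did not overlap. Of 18 synaptic vesicle genes and 27 ion channels and pumps, 0 passed, with medians of -0.02 and -0.04. Their smallest p-values were those of Dap160 (0.12) and Syngr (-0.26) at the synapse, and of unc79 (-0.17), part of the NALCN channel complex, and the potassium channel Irk3 (-0.13). Of 21 genes with published roles in fly sleep, 0 passed, 8 were positive and 13 negative, and the median was -0.03. Within that list, Sh, the potassium channel gene whose loss shortens sleep, differed by -0.14 at its brightest probe set and by between -0.05 and 0.06 at the other 3. Tbh, which makes the arousal transmitter octopamine, differed by -0.26 with overlapping groups. In the cAMP and protein kinase A list, with 8 genes and a median of -0.06, CrebB and Galphas differed by -0.09 each. Without the third ZT14 array, Galphas differed by -0.21, Sh by -0.25, unc79 by -0.29 and Dap160 by 0.07, and the median of the synaptic vesicle genes was -0.12.

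Of 25 neuropeptide genes, 0 passed and the median was -0.02, and 1 gene in each direction lay under an unadjusted p of 0.05. The shares of all genes there were 0.839% higher and 1.14% lower. FMRFa had 6.40, 6.27 and 6.25 in sleeping ZT16 brains and 6.60, 6.56 and 6.49 in ZT14 brains, a difference of -0.24. Nplp3, a neuropeptide-like precursor, had 8.90, 9.07 and 9.07 in sleeping ZT16 brains and 8.87, 8.58 and 8.49 in ZT14 brains, a difference of 0.36. Neither overlapped, although replicate 1 of Nplp3 was separated by only a narrow margin. Groups were separate in 2.48% of all genes in the higher and 3.32% in the lower direction. Of 10 genes of monoamine synthesis, uptake and inactivation, 0 passed, 7 were negative, and the median was -0.10. Apart from speck, Pu, which makes the cofactor for monoamine synthesis, differed by -0.28 with overlap.

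All 8 glycolysis genes measured were negative, with a median of -0.11 and a range of -0.23 to -0.06, and 0 passed. Pgk, phosphoglycerate kinase, had 7.86, 7.71 and 7.88 in sleeping ZT16 brains and 8.04, 7.996 and 8.11 in ZT14 brains, a difference of -0.23 (unadjusted p = 0.0336). Gapdh1, glyceraldehyde-3-phosphate dehydrogenase, differed by -0.17. For 3 of the 8 genes all sleeping values lay below all ZT14 values, where 3.32% of all genes did so. Of 63 oxidative phosphorylation subunits, 27 were positive and 36 negative with a median of -0.01, within a range of -0.18 to 0.12. The smallest p-values there belonged to ATPsyndelta (-0.16) and ATPsyngamma (-0.11). Among 9 genes of sugar storage and gluconeogenesis, Pepck1, which commits carbon to glucose synthesis, differed by 0.35 and Tps1, which makes trehalose, by -0.19. In lipid metabolism, FASN1 (fatty acid synthase) differed by -0.33 and ACC, which makes malonyl-CoA, by -0.29 at its brightest probe set and 0.02 at the other. None of these passed. Pepck1 differed by 0.15 and FASN1 by -0.51 without the third ZT14 array.

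Protein folding lists had negative medians. Of 16 cytosolic chaperones, 0 passed, 11 were negative and 5 positive, and the median was -0.09. Hsc70-4, the main constitutive cytosolic chaperone, had 8.77, 8.46 and 8.93 in sleeping ZT16 brains and 8.97, 9.10 and 8.93 in ZT14 brains. The highest sleeping value nearly met the lowest ZT14 value, and the difference was -0.28. Hsp110, which helps release client proteins, differed by -0.21. Of 13 chaperones and unfolded protein response genes of the endoplasmic reticulum, 10 were negative with a median of -0.06, where CaBP1 differed by -0.15 and the stress kinase PEK by -0.14. That median was -0.14 without the third ZT14 array. In the same brains the proteasome list of 39 had a median of -0.03, with 2 members under an unadjusted p of 0.05, both lower, where 1.14% of all genes were. These were Prosalpha4, a subunit of the core particle, at -0.20 and Rpt2, an ATPase of the regulatory cap, at -0.18.

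Genes of protein synthesis stayed close to the centre. The medians were 0.04 for 37 cytosolic ribosomal proteins, 0.01 for 64 mitochondrial ribosomal proteins, 0.04 for 24 nucleolar ribosome biogenesis genes and -0.02 for 18 aminoacyl-tRNA synthetases. No member passed. Their smallest p-values were those of RpL24-like (-0.21), RpS19b (0.12), mRpS29 (-0.14), mRpS35 (-0.14), pths (0.14), Non1 (-0.13, with 0.11 at its other probe set) and AsnRS (-0.15). SerRS, the seryl-tRNA synthetase, differed by -0.16 at its brightest probe set and by 0.04 at the other. In insulin and TOR signalling, with a median of 0.02, the restraining factor Tsc1 differed by -0.11 and the receptor substrate chico by 0.09, with 0.01 for chico without the third ZT14 array. In serine and one-carbon metabolism, with a median of -0.09, Nmdmc differed by -0.27 and CG6287 by -0.21. Detoxification lists had medians of 0.01 for 83 cytochrome P450 genes, -0.03 for 42 glutathione S-transferases and antioxidant genes and 0.01 for 33 UDP-glycosyltransferases. Their named members were Cyp4g15 (-0.21), Cyp312a1 (-0.17), GstD3 (-0.28), GstD8 (0.20), Ugt37A1 (0.13) and Ugt303B2 (0.12), and none passed. Cyp312a1 and Ugt303B2 read near the dim end, with means of 2.41 and 2.95 in sleeping ZT16 brains.

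Antimicrobial peptide and bomanin genes had the lowest median of the 29 pathway lists, -0.22, with 8 of 10 measured genes negative and 0 passed. Drs, the antifungal peptide drosomycin, had 6.23, 6.42 and 6.69 in sleeping ZT16 brains and 6.56, 8.18 and 7.30 in ZT14 brains. The groups overlapped, and the difference of -0.90 was -0.49 without the second ZT14 array, which held the high value. Across the list the median was -0.44 within chip lot 2, which holds that array, and -0.08 within lot 3. Immune recognition and signalling genes had a median of -0.05, and dl, the NF-kappaB factor Dorsal, differed by 0.24 with separate groups. The dl probe set reads near the dim end, with means of 3.18 in sleeping ZT16 brains and 2.95 in ZT14 brains. The kinase gene pll, in the same pathway, differed by -0.15 (0.02 at its other probe set), and the bomanin BomBc3 by -0.31 with overlap. Without the third ZT14 array the list median was -0.32, BomBc3 differed by -0.48 and dl by 0.14.

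**Figure D4:**
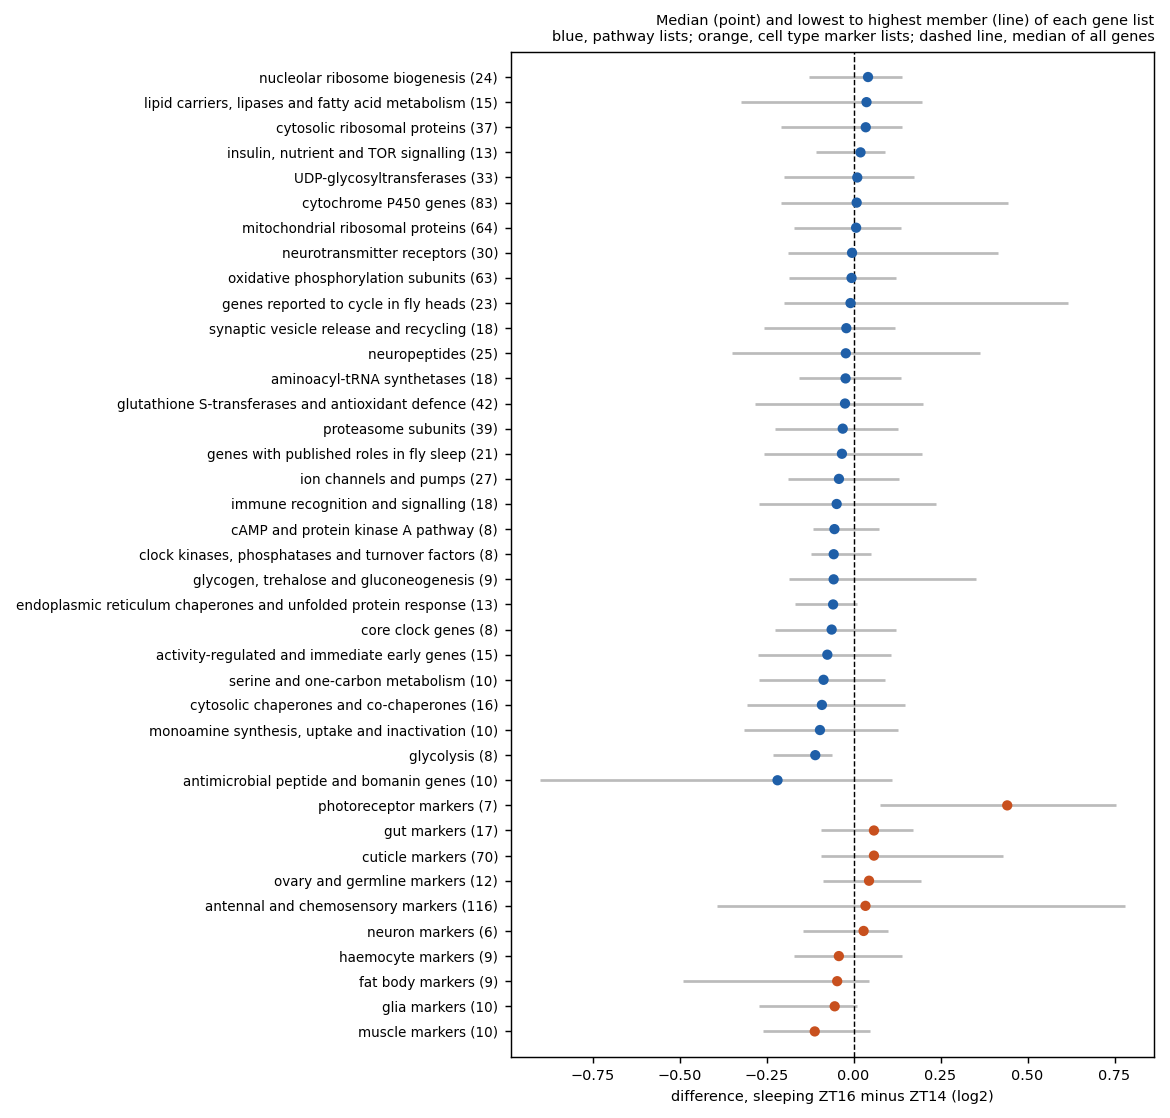
Median (points) and lowest to highest member (lines) of the log2 difference, sleeping ZT16 minus ZT14, in 29 pathway lists and 10 cell type marker lists, with the number of genes measured in brackets and a dashed line at the median of all genes. Photoreceptor markers at 0.44 and antimicrobial peptides at -0.22 have the highest and lowest medians.

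Photoreceptor markers had the highest median of the 39 lists, 0.44, with 7 of 14 listed genes matched, 7 of 7 positive and 0 past the adjusted threshold. Arr2, the main arrestin that ends the light response, had 9.45, 9.39 and 9.59 in sleeping ZT16 brains and 9.37, 8.73 and 8.07 in ZT14 brains. The 3 sleeping arrays were nearly level while the ZT14 arrays spread over more than 1 log2 unit, and the difference of 0.75 (unadjusted p = 0.0408) was 0.43 without the third ZT14 array. Sleeping values lay wholly above ZT14 values in Arr2, trpl and inaD, 3 of the 7, where 2.48% of all genes did so. The margin was narrow in 2 of these. The lowest sleeping and highest ZT14 values were 9.39 and 9.37 for Arr2 and 5.96 and 5.95 for trpl. The light-activated channels trp and trpl differed by 0.66 and 0.44, Arr1 by 0.60, inaD, a scaffold of the signalling complex, by 0.25, chp, a photoreceptor surface protein, by 0.22 and inaC, an eye protein kinase C, by 0.08. Without the third ZT14 array the differences were 0.32 for trp, 0.32 for Arr1 and -0.02 for inaC. The inaC probe set reads near the dim end, with a mean of 3.12 in sleeping ZT16 brains.

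The summed linear level of the 7 markers was 1260 to 1441 in sleeping ZT16 brains and 580 to 1264 in ZT14 brains, so the groups met at their edge. The mean log2 levels were 6.06, 6.11 and 6.34 in sleeping ZT16 brains and 6.10, 5.73 and 5.40 in ZT14 brains. The first ZT14 array thus lay within the sleeping range. The list median was 0.32 without the third ZT14 array, 0.47 within lot 2 and 0.58 within lot 3. Pdh and retinin, both of the eye, had the same sign. Retina attached to a dissected brain would add to these transcripts, and its part in the differences of Pdh, retinin and the photoreceptor genes was not tested. In a bulk sample, more cells of a type and more RNA per cell cannot be told apart.

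The other marker lists lay closer to the centre. Medians were 0.03 for 6 neuron markers, -0.05 for 10 glia markers, -0.05 for 9 fat body markers, -0.04 for 9 haemocyte markers and -0.11 for 10 muscle markers. The neuron marker means were 6.75, 6.70 and 6.81 in sleeping ZT16 brains and 6.76, 6.97 and 6.48 in ZT14 brains, so the sleeping range lay inside the ZT14 range. The neuron marker median was -0.12 without the third ZT14 array, -0.25 within lot 2 and 0.12 within lot 3. The fat body median was -0.01 without that array, -0.25 within lot 2 and -0.04 within lot 3. The dimmest of the 6 averaged 5.06 in sleeping ZT16 brains and 5.04 in ZT14 brains, above the array medians of 4.90 to 4.94 in both groups. Within these lists brp differed by -0.14 (0.05 and 0.02 at its other probe sets), fne by 0.10, Tret1-1 by -0.27, moody by -0.11, Pxn by -0.09, lz by 0.10, Mlc2 by -0.26 and sls by -0.15. The yolk protein genes Yp1 and Yp3, made in fat body, differed by -0.39 and -0.49 with a wide spread in both groups. With 1 array left out, Yp1 ranged from -0.80 to -0.05 and Yp3 from -0.97 to -0.14. Among 116 antennal and chemosensory genes the median was 0.03, but Obp19d reached 0.78, with 8.86, 8.96 and 8.33 in sleeping ZT16 brains and 8.82, 7.89 and 7.10 in ZT14 brains. Obp83b reached 0.75. Without the third ZT14 array these differences were 0.36 for Obp19d and 0.54 for Obp83b. In both odorant-binding protein genes the first ZT14 array lay within the sleeping range. These 2 genes were named after their values were seen. The chemosensory genes with the smallest p were Obp58d at 0.20 and Obp56h at -0.21. Cuticle, ovary and gut lists had medians of 0.06, 0.04 and 0.06, with Cpr66Cb at 0.24, osk at 0.19, Cp15 at 0.16, alphaTry at 0.16 and Jon44E at 0.17. These medians were 0.10, 0.12 and 0.13 without the third ZT14 array, and the chemosensory median was 0.08. Positive members numbered 54 of 70 for cuticle, 10 of 12 for ovary, 13 of 17 for gut and 82 of 116 for chemosensory genes. Over all genes 50.2% were positive. In the glia and muscle lists 9 of 10 each were negative. The probe sets of osk and lz read near the dim end, with means of 2.64 and 2.83 in sleeping ZT16 brains.

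**Figure D5:**
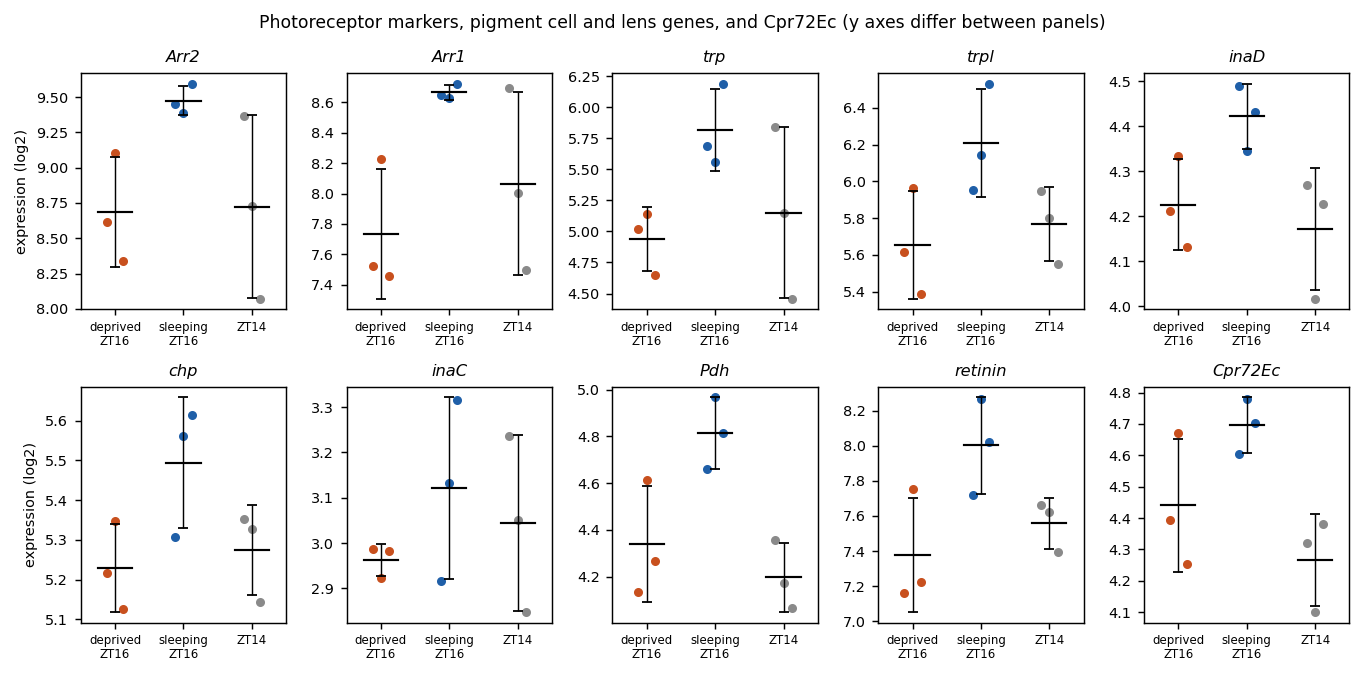
Log2 expression on each array (points) with the mean and SD (bars) in deprived ZT16, sleeping ZT16 and ZT14 brains, 3 arrays each, for 7 photoreceptor markers, Pdh, retinin and Cpr72Ec. In Arr2, Arr1 and trp the first ZT14 array lies near the sleeping arrays and the third lies lowest.

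The same 2 h spent awake were tested in the same fit. Deprived ZT16 minus ZT14 passed 1 probe set (0.00716%), and 1945 (13.9%) lay under an unadjusted p of 0.05. Sleeping ZT16 minus ZT14 shares its ZT14 arrays with that comparison. The called gene was sr, with 8.19, 8.29 and 8.27 in deprived ZT16 brains, against 6.20, 5.93 and 6.20 in sleeping ZT16 brains. The direct difference, deprived minus sleeping at ZT16, was 2.14 (limma, adjusted p = 6.60e-07), and sr was the 1 probe set (0.00716%) that passed there, with 1164 (8.33%) under the unadjusted threshold. Without the deprived array that stood apart, 6 probe sets passed in deprived minus ZT14 and 5 in deprived minus sleeping. Deprived ZT16 arrays were hybridised in other runs than the 6 arrays compared. The run that held the first and second deprived ZT16 arrays also held sleeping arrays of later hours, in which sr had 6.22 and 6.37 at ZT18 and 6.27, 5.92 and 6.22 at ZT20. Within that run the deprived ZT16 values of 8.19 and 8.29 thus lay above all 5 values grouped as sleeping. The ZT20 value of 6.27 came from the array whose labels disagree on whether its flies slept. For other genes the part of the run in deprived minus sleeping was not tested.

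Values of the transcripts named above are given side by side for deprived and sleeping flies, both set against the same ZT14 arrays. The difference from ZT14 of speck was -0.44 in deprived ZT16 brains and -0.31 in sleeping ZT16 brains. That of Clk was -0.30 in deprived ZT16 brains and -0.22 in sleeping ZT16 brains, that of Cyt-c1L was 0.23 in deprived and 0.26 in sleeping ZT16 brains, and that of FMRFa was -0.24 in both. CG9377 averaged 7.95 ± 0.22 in deprived ZT16 brains and 7.26 ± 0.32 in sleeping ZT16 brains (SD, n = 3 each). Retinin averaged 7.38 ± 0.33 in deprived ZT16 brains and 8.001 ± 0.27 in sleeping ZT16 brains. The direct differences, 0.69 for CG9377 and -0.62 for retinin, did not pass (limma, adjusted p = 0.476 and 0.220). The median of the 7 photoreceptor markers was -0.08 in deprived ZT16 minus ZT14 and -0.55 in deprived minus sleeping ZT16. For activity-regulated genes it was 0.19 in deprived ZT16 minus ZT14, and for antimicrobial peptides 0.16. The median of the neuron markers was -0.50 in the same comparison. Their mean log2 levels were 6.66, 5.53 and 6.55 in deprived ZT16 brains and 6.76, 6.97 and 6.48 in ZT14 brains, with the deprived array that stood apart lowest, and the part of the neuron markers in the deprived medians was not tested.

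A waking interval earlier in the day was set beside the sleep comparison, from a separate fit with its own spread. Between ZT10 and ZT14, in other arrays and over 4 h, 9 probe sets passed (0.0644%), all lower at ZT14, and 1591 (11.4%) lay under the unadjusted threshold. Among the 9 were Pdh, Nplp3 and sr. Pdh averaged 4.10 ± 0.09 in wake ZT14 brains and 4.66 ± 0.06 in ZT10 brains (SD, n = 3 each), a difference of -0.56 (limma, adjusted p = 0.0472). Nplp3 fell by 0.58 (limma, adjusted p = 0.0472) and sr by 0.88 (limma, adjusted p = 0.00807). With 1 array left out the count ranged from 3 to 9, with 3 without wake replicate 2 or ZT10 replicate 3 and 4 without ZT10 replicate 1. The median of the photoreceptor markers was -0.19 in the same interval, and the part of the eye in the call of Pdh was not tested. Over the first 2 h of sleep the differences, none of which passed, were 0.62 for Pdh, 0.36 for Nplp3 and -0.02 for sr.

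For clock genes, the differences, wake ZT14 minus ZT10, were 0.32 for per, 0.49 for tim, 0.29 for vri, -0.30 for Clk and -0.46 for cry, with tim nearest to the threshold (limma, adjusted p = 0.0545). None passed. Over the first 2 h of sleep the corresponding differences were 0.05, 0.08, 0.12, -0.22 and -0.09. The intervals differ in length, and no test was made between them.

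The next 2 h of sleep were also without a call. Sleeping ZT18 minus sleeping ZT16 passed 0 probe sets in limma (0%) with 1523 (10.9%) under an unadjusted p of 0.05. The difference between the intervals, first 2 h minus next 2 h, passed 0 (0%) with 433 (3.1%) under that threshold and a smallest adjusted p of 0.9998. Retinin had the smallest p there. It averaged 8.001 at sleeping ZT16 between 7.56 at ZT14 and 7.46 at ZT18, and its arrays at ZT18 had 7.49, 7.38 and 7.52. CG9377 averaged 8.07 at ZT14, 7.26 at ZT16, 7.59 at ZT18 and 8.03 at ZT20, so the ZT16 mean was the lowest of 4 hours. The mean of speck was 7.97 at ZT14, 7.65 at ZT16, 7.64 at ZT18 and 7.59 at ZT20.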

How the data were processed

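The deposited values are log2 expression values that the authors made with the robust multi-array average (RMA), as the design text states; affy is named in the submitters' processing notes, its version and that of RMA not given in the sources used here. RMA equalises array distributions, so a shift common to most transcripts would not be seen, and low values are compressed. Of 14010 probe sets, 44 controls were left out. Symbols came from the platform annotation, updated through RefSeq gene numbers: 12443 probe sets had 1 symbol, 327 several and 1196 none, covering 10844 genes. Differences were fitted with limma 3.58.1 in R 4.3.3 (lmFit, eBayes) with 1 mean per group over the 21 deprivation arrays, or the 9 active period arrays for ZT14 minus ZT10, and Benjamini-Hochberg adjustment over all probe sets. The fit was run on simulated data as a check of the code alone. Its outcome is not reported here, and no result rests on it. Named genes were the 8 smallest p-values in each direction, since none passed, every core clock gene and the 2 smallest p-values in each of 29 pathway and 10 marker lists; the other photoreceptor markers were added after their values were seen. Each gene used its brightest probe set. The comparison, members and lists were chosen with earlier results of these data known. Hybridisation run and chip lot were read from the deposited array settings. Replicate numbers did not pair the arrays: deviations from group means of same-numbered arrays correlated at 0.064, -0.426 and -0.282. Depth does not apply to arrays.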

Additional observations from a re-analysis of the deposited data

Results flagged for a closer look

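The 2 h response of sr differed between deprived and sleeping flies. Its log2 level was 2.14 higher in deprived ZT16 brains than in sleeping ZT16 brains (limma, adjusted p = 6.60e-07), with 8.19, 8.29 and 8.27 in deprived ZT16 brains and 6.20, 5.93 and 6.20 in sleeping ZT16 brains. It was higher in 3 of 3 deprived arrays. Groups of 3 arrays were not screened for single outlying values.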

How the results depend on the processing

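With 3 pools in each group, the median half-width of the single 95% intervals was 0.21 log2 units. No difference of any size passed after adjustment in the unweighted fit over 21 arrays. Signal near the dim end is compressed, and sleep and hour cannot be told apart. The count of 0 calls for sleeping ZT16 minus ZT14 held in every alternative run (array sets, dim probe sets omitted, renewed quantile normalisation, median centring, trended and robust variance, blocks for replicate, chip lot and run, 1 probe set per gene, a threshold of 0.10, each of the 6 arrays left out, and, chosen after seeing the data, only the shared hybridisation run) except array weights. Weights passed 278 probe sets (104 higher, 174 lower) over 21 arrays and, in a fit chosen after seeing the data, 232 (74 higher, 158 lower) over the 6 arrays; with the first sleeping ZT16 array left out, also chosen after seeing the data, weights passed 0. Of the 16 genes with the smallest p, 13 passed in the weighted 21-array fit. At an unadjusted p under 0.05 the count was 280, and 156 to 626 when 1 array was left out, 707 with the run as a block and 1005 in the shared run alone. The replicate block, whose numbers pair nothing here, passed 0 with 256 under the unadjusted threshold and left the counts of the other comparisons as they were, except 10 in place of 9 in wake ZT14 minus ZT10.

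Leaving out 1 array gave 1 to 6 calls in deprived ZT16 minus ZT14 (6 without deprived replicate 2), 1 to 5 in deprived minus sleeping ZT16 (5 without the same array) and 3 to 9 in wake ZT14 minus ZT10 (3 without wake replicate 2 or ZT10 replicate 3, 4 without ZT10 replicate 1).

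Of 102 named genes, 12 had a reversed sign in at least 1 alternative, none of them past the threshold there. With 1 array left out, per ranged from -0.027 to 0.093, tim from -0.025 to 0.177, Pdp1 from -0.131 to 0.077, sr from -0.092 to 0.072, inaC from -0.021 to 0.180, Yp1 from -0.80 to -0.05, Yp3 from -0.97 to -0.14, Galphas from -0.21 to -0.0077 and RpS19b from 0.00075 to 0.20. With the run as a block and in the shared run alone, tim was -0.025 and inaC -0.021. With array weights over 21 arrays and over the 6 arrays, sr was 0.044 and 0.046, RpS19b -0.00766 and -0.0134, Galphas 0.022 and 0.026, inaC -0.185 and -0.207, and Yp1 0.028 and 0.079, and pths was -0.00486 over the 6. With weights and the first sleeping ZT16 array left out, tim was -0.000444, tyf 0.049, fne -0.0114, Yp3 0.079 and Yp1 0.058. The causes were not tested.

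Medians of 39 lists moved by more than the replicate SD in 11 of 780 alternatives, in 3 lists. That SD was the larger group SD of the per-array list medians. Leaving out an array shifts a group mean by less than its own SD, so such runs could rarely count as moved. Not counted were neuron markers, 0.03 and -0.12 without the third ZT14 array, and synaptic vesicle genes, -0.02 and -0.12. Among the 3 lists that moved, core clock genes had 0.02 without the second sleeping array, -0.11 without the third and -0.02 without the second ZT14 array. Oxidative phosphorylation subunits had -0.06 without the second sleeping array and -0.06 and -0.05 with weights over 21 and 6 arrays. Neuropeptides had 0.02 after renewed normalisation and without the first ZT14 array, and -0.06 without the third, with the run as a block and in the shared run alone.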
